A study of Mus musculus with 82 samples.

Results

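The 38 interferon response genes described here were chosen by symbol, as genes known to be induced by interferon, out of 55376 genes counted in mouse hematopoietic stem cells (HSCs) and myeloid progenitors. All donor animals were wild-type C57BL/6J males, and age is given here only as young or old. mRNA was sequenced from sorted bone marrow HSCs (Lin- Sca-1+ c-kit+ CD34- Flk2- CD150+) of 4 young (YHSC) and 8 old (OHSC) samples, the young ones from pooled mice and the old ones from individual mice. Old HSCs were also transduced with a lentivirus carrying a control shRNA, shRNA1 or shRNA2, and 2 libraries per shRNA were sequenced either from GFP+ cells after culture or from GFP+ CD45.2+ donor HSCs (Lin- Sca-1+ c-kit+ CD48- CD150+) sorted again out of lethally irradiated CD45.1 female recipients that had also received CD45.1 myeloid progenitors as helper cells. shRNA1 and shRNA2 target a shorter variant of Btaf1, a factor that acts on the TATA-binding protein. Young common myeloid progenitors (CMP), granulocyte-macrophage progenitors (GMP) and megakaryocyte-erythroid progenitors (MEP) gave 2 mRNA libraries each. Open chromatin was profiled by ATAC-seq (4 libraries per age) and histone H3K27ac by 2 libraries per age in HSCs, and H3K4me3 and H3K27me3 by 2 libraries each in young HSCs. All culture and transplant libraries, controls included, came from old cells that had been transduced. Per the study's methods each transplant library pooled cells of several recipients, and lineage markers of the sort included Mac1, Gr1, B220 and Ter119. The sources do not say that replicates of the culture and progenitor groups came from separate animals, or transplant replicates from separate donors. The p-values of these groups measure only the spread between their libraries.

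Interferons are secreted proteins that warn cells of infection. Type I interferons bind a receptor made of IFNAR1 and IFNAR2, and the kinases JAK1 and TYK2 then activate a complex that contains STAT2 and IRF9 and binds the interferon-stimulated response element (ISRE) in the promoters of antiviral genes. Interferon gamma acts through the gamma-activated site (GAS) and raises IRF1 and the interferon-inducible GTPases. HSCs respond to both kinds of interferon and can leave quiescence under them, and stem cells are also known to hold a basal level of some of these genes.

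The ISRE core was searched as the letters GAAA, any 2 bases, GAAA, on both strands, in the window from 250 bases before to 50 bases after each RefSeq transcription start. RefSeq windows on GRCm38.p6 matched 28 of the 38 genes. The core was found in 17 of those 28 genes (60.7%), beside 1079 of 27025 genes of the whole table (3.99%). The GAS core, TTC, any 3 bases, GAA, was found in 9 of the 28 (32.1%), beside 9.55% of all genes. Allowing 1 mismatch in the ISRE core, 25 of the 28 genes (89.3%) and 38.9% of all genes had a match. A match describes letters and is not a measured binding site. The windows of Ifit1, Ifit3, Bst2, Ifitm3, Irgm1 and Oas1a held 2 cores each and that of Isg15 held 3 overlapping ones. The upstream window of Gbp3 also held 2 cores, and its downstream window held none. No core lay in the windows of Irf1, Irf7, Irf9, Ifitm1, Ifit2, Ifi35, Ifi44, Oasl1, Oasl2, Samhd1 and Xaf1. The 160 bases before the start are printed for 4 genes whose levels later separated single libraries (Isg15, Ifit1, Ifit3, Rsad2), for 2 interferon-inducible GTPases (Gbp7, Igtp) and, as a promoter without the core, for Irf1. They run 5′ to 3′ toward the gene, and capitals mark the ISRE core on either strand.
Isg15, chr4:156200819-156200978, minus strand: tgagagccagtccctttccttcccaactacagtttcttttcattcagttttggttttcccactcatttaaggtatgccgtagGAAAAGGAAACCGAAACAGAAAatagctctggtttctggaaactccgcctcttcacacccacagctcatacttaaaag
Ifit1, chr19:34640729-34640888, plus strand: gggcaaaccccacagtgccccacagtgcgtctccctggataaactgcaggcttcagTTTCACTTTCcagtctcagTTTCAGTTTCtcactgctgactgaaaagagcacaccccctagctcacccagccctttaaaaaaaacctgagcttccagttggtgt
Ifit3, chr19:34583369-34583528, plus strand: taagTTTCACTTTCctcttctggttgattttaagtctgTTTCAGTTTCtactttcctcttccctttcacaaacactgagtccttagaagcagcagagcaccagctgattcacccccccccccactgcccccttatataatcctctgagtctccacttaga
Rsad2, chr12:26456453-26456612, minus strand: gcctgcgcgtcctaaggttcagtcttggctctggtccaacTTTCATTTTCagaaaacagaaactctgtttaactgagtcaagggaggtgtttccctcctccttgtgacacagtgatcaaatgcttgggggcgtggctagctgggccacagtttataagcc
Gbp7, chr3:142530176-142530335, plus strand: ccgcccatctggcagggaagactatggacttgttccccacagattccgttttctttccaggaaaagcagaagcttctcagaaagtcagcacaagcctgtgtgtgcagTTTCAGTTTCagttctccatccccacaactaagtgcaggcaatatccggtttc
Igtp, chr11:58199396-58199555, plus strand: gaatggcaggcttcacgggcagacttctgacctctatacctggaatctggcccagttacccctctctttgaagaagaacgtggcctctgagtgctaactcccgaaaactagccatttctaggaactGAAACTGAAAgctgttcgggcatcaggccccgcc
Irf1, chr11:53769854-53770013, plus strand: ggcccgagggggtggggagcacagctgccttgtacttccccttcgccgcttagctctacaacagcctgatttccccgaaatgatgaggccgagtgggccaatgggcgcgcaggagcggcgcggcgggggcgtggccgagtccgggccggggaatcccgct

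In Isg15, which encodes a ubiquitin-like protein joined to other proteins during antiviral defence, the overlapping cores form 1 unbroken stretch of capitals. Ifit1 and Ifit3, neighbours on chromosome 19 that encode RNA-binding antiviral proteins, carried 2 separate cores each. The core of Rsad2, which encodes the antiviral enzyme viperin, lay 120 bases before its start, farther than the 53 bases of Gbp7 or the 34 bases of Igtp. No window was matched for Rtp4, Mx1, Mx2, Oas2, Usp18, Ifi27l2a, Dhx58, Zbp1, Iigp1 and Parp14.

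Total reads on genes were 20475764 to 24122404 in the young and 22175623 to 24654742 in the old HSC libraries, 37292602 to 42737054 in culture, 37601706 to 42142361 after transplantation and 33177394 to 36510850 in the progenitors. Levels are given as CPM, counts scaled to those totals, and log2 fold changes come from the fit with TMM scaling, so the 2 can differ where library composition does. The summed CPM of 9 HSC markers was 3802 to 3854 in young and 3466 to 3976 in old HSCs, 1380 to 1615 in culture and 2642 to 3124 after transplantation, against 546 to 964 in the progenitors. In the progenitors Kit alone was at 528 to 914 CPM, while Hlf was at 0.34 to 19.7 CPM and Mecom at 0.732 to 7.59 CPM, against 623 to 653 and 337 to 365 CPM in young HSCs. Counts over the whole Btaf1 gene, which do not separate the shorter variant, were 137 and 141 CPM in the culture controls against 110.0 to 119 CPM with either shRNA, and 161 and 166 CPM in the transplant controls against 118 to 139 CPM. Control and shRNA libraries did not overlap in either experiment.

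In young HSCs the 38 genes spanned a wide range of basal levels. Per length, the highest was Ifitm3, a membrane protein that blocks virus entry, at 1008 ± 71.4 RPKM (CPM per kilobase of exon, ± SD, n = 4), followed by its relative Ifitm1 at 754 ± 30.6. Next in RPKM were Igtp, a GTPase that acts on intracellular parasites (76.9 ± 10.7), and Bst2, the virus tether tetherin (76.6 ± 4.38), which did not differ beyond their spread. Irf1, the transcription factor of the interferon gamma response, followed at 63.1 ± 2.56 and the GTPase Gbp2 at 47 ± 5.45. The lowest levels belonged to Oas2 (3.78 ± 0.956), Ifi27l2a (2.95 ± 1.37), Mx2 (1.98 ± 0.484) and Mx1 (1.84 ± 0.395), the last 2 again within their spread. Mx1 and Mx2 encode antiviral GTPases whose alleles in C57BL/6 mice are known to make no functional protein, and the annotation used here lists Mx2 as a polymorphic pseudogene. Ifitm3 and Ifitm1 also held the first 2 ranks in old HSCs and in the culture controls.

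**Figure D1:**
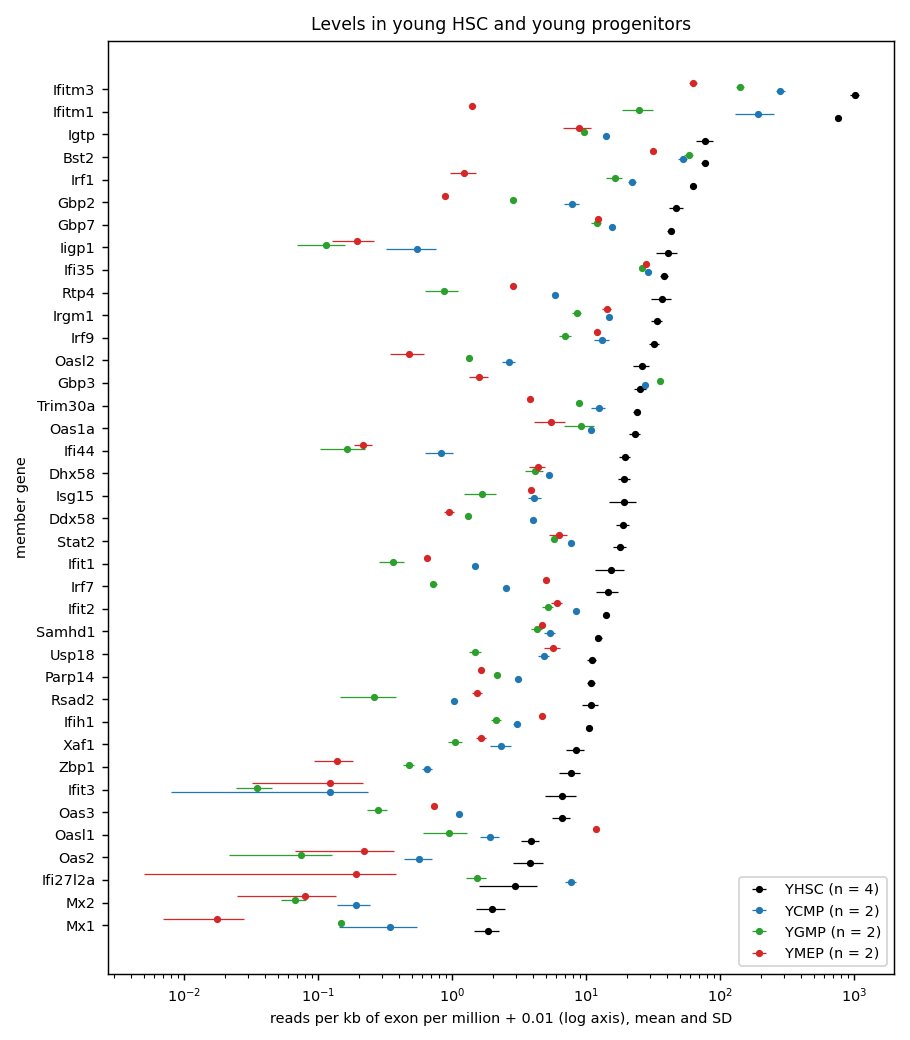
Level of each of the 38 genes in young HSC, CMP, GMP and MEP, as RPKM with 0.01 added, on a log axis, with points for means and bars for the SD over 4 HSC and 2 progenitor libraries per type (bars that would reach 0 are cut). Ifitm3, at 1008 in HSCs, tops every cell type, and most genes sit further right in HSCs than in the progenitors.

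Between ages, 2 of the 38 genes passed the test and most of the others had values slightly below 0. Here and below, a gene is called when its fold change is above 1.5 and its Benjamini-Hochberg adjusted p is below 0.05 in edgeR's quasi-likelihood test over all genes tested. Rtp4 rose and Mx1 fell, against 4.69% of 21522 genes called higher and 2.83% called lower with age. The log2 fold change was below 0 for 31 of the 38 genes, with a median of -0.15 beside -0.0073 over all genes tested. With no fold threshold, 7 of the 38 had an adjusted p below 0.05, beside 20.6% of all genes tested, 3 with positive (Rtp4, Ifitm3, Trim30a) and 4 with negative fold changes (Mx1, Mx2, Oasl1, Samhd1). An unadjusted p below 0.05 was found for 16 of the 38, beside 30% of all genes. In bulk samples, fewer cells of a type and less RNA per cell cannot be told apart.

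**Figure D2:**
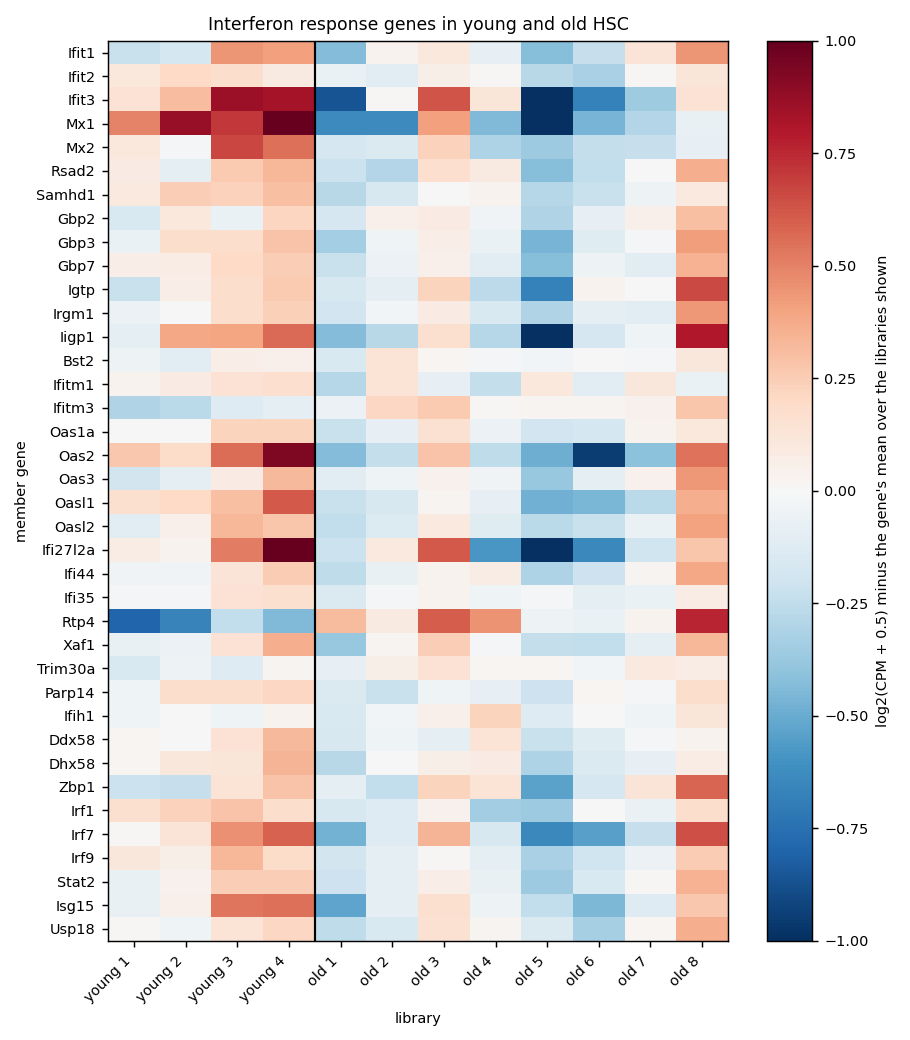
Heatmap of the 38 genes in the 4 young and 8 old HSC mRNA libraries, as the log2 CPM deviation from each gene's mean, with the colour scale ending at 1 on either side of 0. Old replicate 8 was the highest old library for 27 genes and old replicate 5 the lowest for 25, and the called genes are Rtp4 (64.6 to 94.2 CPM in young, 107 to 191 CPM in old) and Mx1 (5.44 to 8.95 CPM in young, 1.46 to 5.08 CPM in old).

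Rtp4 (chr16:23520291-23614222, GRCm38) encodes a chaperone of membrane receptors that is also known to restrain antiviral signalling. Its level was 64.6, 70.2, 94.2 and 82.5 CPM in young HSCs and 107 to 191 CPM in old ones (median 129.5). All old libraries lay above all young ones, and the log2 fold change was 0.86 (SE 0.19, edgeR adjusted p = 0.0071). Mx1 (chr16:97447035-97462907) was at 5.44, 7.18, 6.35 and 8.95 CPM in young HSCs and 1.46 to 5.08 CPM in old ones (median 2.57). All old libraries lay below all young ones, with a log2 fold change of -1.27 (SE 0.23, adjusted p = 0.00041). The 2 of 38 genes with all old libraries above all young ones and the 1 below stood beside 8.32% and 5.54% of all genes. Ifitm3 (chr7:141009586-141010770) was the second gene with all old libraries above, at 636, 648, 718 and 732 CPM in young HSCs and 751 to 948 CPM in old ones (median 804). Its log2 fold change of 0.34 (SE 0.07, adjusted p = 0.0015) was under the 1.5-fold threshold. Ifitm1 (chr7:140967221-140969825), close by on chromosome 7, was at 785, 809, 846 and 858 CPM in young HSCs and 628 to 843 CPM in old ones (median 727), with overlapping groups and a log2 fold change of -0.11 (SE 0.08, adjusted p = 0.37).

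None of the 4 transcription factors of the list was called. Irf1 was at 242, 253, 264 and 244 CPM in young HSCs and 168 to 244 CPM in old ones (median 202). Its groups overlapped only through old replicate 8, and the log2 fold change was -0.27 (SE 0.10, adjusted p = 0.068). Irf9, the DNA-binding part of the type I complex, was at 164, 159, 192 and 173 CPM against 121 to 182 CPM (median 142), and its partner Stat2 at 92.5, 100.4, 116 and 116 CPM against 75.8 to 124 CPM (median 91.8). Irf7, which amplifies the type I response, was at 44.4, 48.3, 60.9 and 66.5 CPM against 28.1 to 69.2 CPM (median 38.4). The ages overlapped in these last 3 genes, with log2 fold changes of -0.21 for Irf9, -0.13 for Stat2 and -0.37 for Irf7 (adjusted p of 0.11, 0.53 and 0.38).

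Among the antiviral effectors and the ubiquitin-like pathway, Isg15 was at 11.1, 12.1, 17.2 and 17.3 CPM in young HSCs and 7.96 to 14.2 CPM in old ones (median 10.8). Ifit1 was at 31.6, 32.7, 50.3 and 49.2 CPM against 27.3 to 50.3 CPM (median 36.4) and Ifit3 at 8.49, 9.57, 14.2 and 14 CPM against 3.19 to 12.1 CPM (median 6.78). In all 3 genes young replicates 3 and 4 lay above young replicates 1 and 2, and the ages overlapped. Rsad2 was at 44.4, 39.2, 50.3 and 52.9 CPM against 31 to 54.1 CPM (median 38.9). Usp18, the protease that removes ISG15, was at 29.2, 28.1, 31.9 and 33.4 CPM against 22.9 to 37.4 CPM (median 27.8). Oas2, an oligoadenylate synthetase that triggers RNA decay, was at 14.1, 13.2, 17.4 and 22.6 CPM against 5.76 to 17.1 CPM (median 9.13). These groups overlapped too, and the log2 fold changes were -0.38 for Isg15, -0.14 for Ifit1, -0.73 for Ifit3, -0.17 for Rsad2, -0.07 for Usp18 and -0.68 for Oas2 (adjusted p of 0.093, 0.71, 0.16, 0.52, 0.73 and 0.1).

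Leaving out single libraries changed the count. Without old replicate 3, Ifit3 (-0.91) and Mx2 (-0.59) were called lower as well, which brought the count to 4. Without young replicate 2 it was 3, with Mx2 (-0.63), and without old replicate 8 it was 3, with Oas2 (-0.82). Rtp4 and Mx1 were called in each of these fits. Mx2 was at 5.94, 5.42, 9.02 and 8.25 CPM in young HSCs and 4.16 to 6.52 CPM in old ones (median 4.71), and its log2 fold change over all 12 libraries was -0.51 (SE 0.14, adjusted p = 0.012). Old replicate 3 held the highest old value of Mx2, Mx1 (5.08 CPM) and Ifit3 (12.1 CPM). Its 6 summed monocyte and macrophage markers were also the highest of the old libraries, at 56.1 CPM against 23 to 33.9 CPM, with Adgre1 at 9.27 and C1qa at 15 CPM. The part of such cells in these values was not tested.

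The GTPases, which act at the membranes around intracellular microbes, showed no called change. Gbp2 was at 104, 124, 111 and 134 CPM in young HSCs and 94 to 142 CPM in old ones (median 116), Irgm1 at 175, 183, 207 and 215 CPM against 148 to 247 CPM (median 169.7) and Igtp at 126, 154, 166 and 176 CPM against 91.8 to 233 CPM (median 142). Their log2 fold changes were 0.01, -0.09 and -0.03, smaller than their standard errors of 0.10, 0.13 and 0.21, and the sign turned for Gbp2 and Igtp when single libraries were left out and for Gbp2 also in edgeR with RLE size factors and with the replicate number as a block. The upper end of all 3 old ranges was replicate 8 and the lower end replicate 5. Bst2 was at 67.1, 64.6, 72.7 and 72.2 CPM against 62.3 to 76.3 CPM (median 69), with overlapping ages. Ifi27l2a, a mitochondrial protein, was at 0.921, 0.879, 1.43 and 2.24 CPM against 0.177 to 1.57 CPM (median 0.67), again with overlap. Samhd1, which hydrolyses nucleotides that viruses need, was at 103, 115, 113 and 119 CPM against 79 to 103 CPM (median 89.6). Only old replicate 8 reached the young range of Samhd1, above the lowest young library by a small margin, and the log2 fold change of -0.29 (SE 0.06, adjusted p = 0.0019) was under the 1.5-fold threshold.

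Much of the variation among these genes ran between libraries of the same age. Old replicate 8 was the highest of the 8 old libraries in 27 of 38 genes, beside 10.2% of all genes, and old replicate 5 was the lowest in 25, beside 9.8%. Their median log2 deviations over the 38 genes were 0.40 and -0.26. Among the young libraries, replicate 4 was the highest in 30 of 38 genes, beside 24.2% of all genes. Young replicates 1 and 2 were the lowest in 16 and 20, beside 22.2% and 32.6% of all genes. Summed CPM of 6 B cell markers was 84.3, 98.3, 151 and 151 in young replicates 1 to 4 and 36.5 to 43.9 in old HSCs. Summed CPM of 6 plasmacytoid dendritic cell markers was 5.19, 11.1, 13.6 and 13.5 in young and 2.41 to 5.59 in old HSCs. Summed CPM of 5 granulocyte markers was 4.56, 4.39, 162 and 65.3 in young and 3.54 to 65.8 in old HSCs. Young replicates 3 and 4, the higher ones for Isg15, Ifit1 and Ifit3, thus held the most B cell and granulocyte markers of the young libraries. The dendritic marker Siglech was at 0.0811 to 1.07 CPM in all 12. The dendritic sum of the young libraries was led by Spib, at 1.84, 4.83, 8.65 and 9.74 CPM against 0.0406 to 0.296 CPM in old HSCs. Old replicate 8 held the highest summed erythroid markers of the old libraries, at 173 CPM against 26.4 to 82.8 CPM, with 135 to 194 CPM in the young libraries. The markers in this sum went opposite ways with age. Car1, a carbonic anhydrase, was at 118 to 169.5 CPM in young and 0.316 to 18.9 CPM in old HSCs. The globin genes Hba-a1 and Hbb-bs were at 2.05 to 3.08 and 1.56 to 4.39 CPM in young and 4.83 to 53.4 and 10.8 to 95.2 CPM in old HSCs, with old replicate 8 the highest of the 12 in both. The 5 megakaryocyte markers summed to 488 to 508 CPM in young and 856 to 1185 CPM in old HSCs without overlap, with Vwf at 315 to 357 and 574 to 897 CPM. Of 5 T and NK cell markers, Klrb1c was at 12.6 to 18.1 CPM in young and 53 to 80.2 CPM in old HSCs, while Cd3e, Cd3g, Ncr1 and Gzma were at 1.22 CPM or less in all 12. The part of these other cells was not tested. Young libraries were pools and old ones single mice, so pooling and age cannot be told apart.

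Genes upstream of the response were described by a list of 40 ligands, receptors, kinases, sensors and feedback genes, 35 of which had enough reads for the test between ages. Called higher were 2 of them, beside 4.69% of all genes, Ifnlr1, the interferon lambda receptor chain (2.59, SE 0.23, adjusted p = 5.9e-09), and Socs3, a feedback inhibitor of STAT signalling (2.12, SE 0.28, adjusted p = 0.00026). None was called lower by edgeR, 14 of the 35 had an unadjusted p below 0.05, beside 30% of all genes, and the median of the list was -0.09. With no fold threshold, 14 also had an edgeR adjusted p below 0.05, beside 20.6% of all genes. Besides the 2 called, Stat3 (0.49), Myd88 (0.27) and Jak1 (0.10) were above 0. Those below 0 were Irf8 (-0.56), Irf5 (-0.42), Ikbke (-0.39), Irf2 (-0.35), Il10rb, Cgas, Ifngr2, Ptpn6 and Ifnar1. The interferon genes Ifnb1, Ifna4 and Ifng had at most 5 reads in any of the 12 libraries.

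At the promoters, accessibility by ATAC-seq had values below 0 with age for most of these genes. A region was assigned to a gene when it overlapped the stretch from 1000 bases before to 100 bases after an annotated start, which gave 48 regions for 37 genes, with none at Oasl1. None of the 48 passed the study's thresholds (fold above 1.5 and adjusted p below 0.01) by edgeR or DESeq2, while 10.1% of 89245 regions were called higher and 2.9% lower, and 27 of the 48 had an unadjusted edgeR p below 0.05, beside 42.6% of all regions. With no fold threshold, 12 of the 48 (25%) were lower at an adjusted p below 0.01 and none was higher. That share stood beside 9.54% of all regions and 21.5% of the 20848 regions at any annotated start, and 5.54% of the latter were higher. The log2 fold change was below 0 for 41 of 48 regions (85.4%, beside 73.5% at any annotated start), with a median of -0.20 beside -0.12 at any start and -0.01 over all regions. Leaving out single libraries brought regions past both thresholds, all lower: the Ifitm3 region without young replicate 1 (-0.63) or old replicate 6 (-0.65), the Ifitm1 and Ifitm3 regions without young replicate 2 (-0.59 and -0.59), and 3 regions, at Xaf1, at Ifi27l2a and a second Irf1 region (chr11:53772626-53772858), without old replicate 7 (-0.63, -0.75 and -0.69).

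The Ifitm1 region (chr7:140967687-140968501, mm10) was at 32.4, 25.5, 27.7 and 31.4 CPM in young and 18.1, 19.2, 22.3 and 21.6 CPM in old HSCs (-0.54, SE 0.07, adjusted p = 2e-08). The Ifitm3 region (chr7:141010432-141011280) was at 8.39, 8.81, 9.95 and 10.6 CPM in young and 6.44, 7.68, 5.72 and 5.98 CPM in old (-0.57, SE 0.12, adjusted p = 0.00016). Both regions were lower in all old libraries, whereas the mRNA of Ifitm3 was higher in all old libraries. The promoter region of Irf1 (chr11:53769448-53770840) was at 24.4, 25.3, 28.9 and 27.3 CPM against 19, 18.6, 19.8 and 21.3 CPM (-0.44, SE 0.07, adjusted p = 1.1e-06), and that of Mx1 (chr16:97462622-97463517) at 15.1, 11.4, 13.5 and 12.8 CPM against 9.53, 9.14, 9.98 and 10.0 CPM (-0.47, SE 0.10, adjusted p = 0.00013). At Rtp4, the region at the downstream start (chr16:23609358-23610297) was at 18.8, 17.1, 17.7 and 17.4 CPM against 12.1, 12.3, 13.9 and 11.4 CPM (-0.53, SE 0.09, adjusted p = 1.7e-06), and the region at the upstream start was at 1.82 to 3.26 CPM with a log2 fold change of -0.07. The ages did not overlap at the regions of Irf1 and Mx1 or at the downstream start of Rtp4, where the mRNA was higher and the region lower. The remaining regions below an adjusted p of 0.01 lay at Xaf1, Igtp, Ifi35, Irgm1, Irf9, Parp14 and Usp18, with log2 fold changes from -0.54 to -0.18. Gbp2 and Zbp1 had the largest values above 0, at 0.17 and 0.19 (adjusted p of 0.019 and 0.032).

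Acetylation of H3K27, a mark of active promoters and enhancers, passed the study's rule at 2 of the peaks of these genes. Of 39557 peaks, 45 were annotated to 35 of the genes, with none for Ifi27l2a, Ifit3 and Oasl1. By the study's rule (mean signal ratio above 1.5 and at least 1.2 in every old to young pair) 2 of the 45 were higher and 0 lower, beside 9.11% of all peaks higher and 2.27% lower. Both were weak peaks inside genes. The one in Ifih1, which encodes the RNA sensor MDA5, had signals of 0.995 and 0.641 in young and 1.497 and 1.4 in old HSCs, and the one in Trim30a 0.553 and 0.834 in young and 1.07 and 1.26 in old HSCs. With the 4 libraries scaled to the same median the count became 1 higher (Ifih1) and 2 lower (the gene-body peak of Gbp2 and the promoter peak of Ifit2), and without young replicate 2 it became 1 higher (Trim30a) and 4 lower (Mx1, Oas2, Gbp2, Ifit2). A limma test on log2 signal called none of the 45, with 4 at an unadjusted p below 0.05, beside 17.4% of all peaks. The median log2 ratio was -0.02, beside 0.06 over all peaks. At promoters, the signals of Irf1 were 6.34 and 5.18 in young and 4.02 and 4.63 in old HSCs. Those of Mx1 were 2.79 and 1.93 against 1.89 and 1.66, and those of Rtp4 7.02 and 5.92 against 6.04 and 6.54. Over all 4 libraries none of these promoter peaks passed the study's rule. Ifitm3 was at 4.19 and 4.13 against 4.06 and 4.04, a log2 ratio of -0.04.

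**Figure D3:**
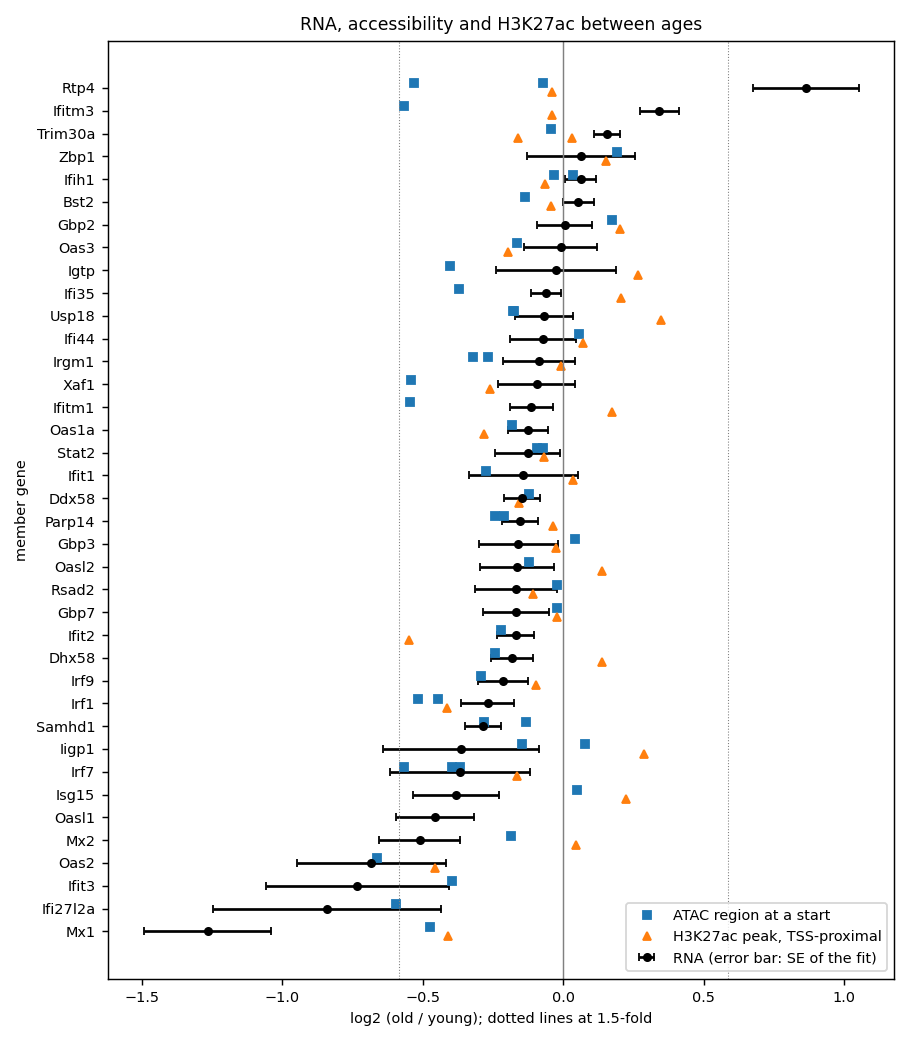
Log2 ratio of old to young HSCs for each of the 38 genes, for mRNA (points with SE, edgeR), for each promoter ATAC-seq region and for each promoter H3K27ac peak. Mx1 lies below 0 in all 3 assays (-1.27, -0.47 and -0.41), whereas Rtp4 lies at 0.86 for mRNA and at -0.53 for the region at its downstream start. Over all libraries no promoter region and no promoter peak passed the study's thresholds.

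In young HSCs most of these promoters were marked by H3K4me3, which accompanies active or poised starts. The mark had 41 peaks annotated to 34 genes (none annotated to Ifi27l2a, Ifit3, Isg15 and Oasl1). In all, 16445 genes had a peak, where 55376 genes were counted for mRNA. The median signal was 14.3 beside 5.37 over 33199 peaks. Most peaks of the list lay at promoters and the 33199 were peaks of every annotation, so these medians do not compare promoters with promoters. The strongest were Irgm1 (23.8 and 26.7) and Ifitm1 (25.4 and 24.9), and the weakest promoter peaks were Oas2 (2.25 and 2.86) and Mx1 (3.58 and 3.82), both also low in mRNA per length. The repressive mark H3K27me3 had 3 peaks at 2 of the 38 genes, Oas2 and Zbp1, all inside the gene. In all, 10015 genes had a peak of this mark. Mean signals were 0.154 and 0.415 at Oas2 and 0.4004 at Zbp1, beside a median of 0.389 over 55820 peaks.

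In cultured old HSCs, 1 library stood far above the other 5 in these genes. Culture shRNA2 replicate 1 held the highest value of the 6 libraries in 38 of 38 genes, beside 17.7% of all genes, and its median log2 deviation over the 38 was 1.23 against -0.43 to -0.0019 in the others. Ifit3 was at 57.7 CPM in it and at 0.742 to 1.71 CPM elsewhere, and Ifit1 at 191 CPM against 12.8 to 21.7 CPM. Mx1 was at 13.8 CPM against 0.0488 to 0.831 CPM. The other shRNA2 library lay much closer to the controls and shRNA1, but above all 4 of them in 30 of the 38 genes (78.9%), beside 10.8% of all genes in which both shRNA2 libraries were above the other 4. In it Rtp4 was at 55.3 CPM against 32.5 to 41.5 CPM in those 4, Usp18 at 33.1 CPM against 23.9 to 28.6 CPM, and Ifit3 at 1.71 CPM against 0.742 to 1.55 CPM. The 8 genes in which it was not above all 4 were Ifit1, Irf1, Stat2, Mx1, Mx2, Oas2, Parp14 and Samhd1, with Ifit1 at 19.3 CPM and Mx1 at 0.0488 CPM.

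**Figure D4:**
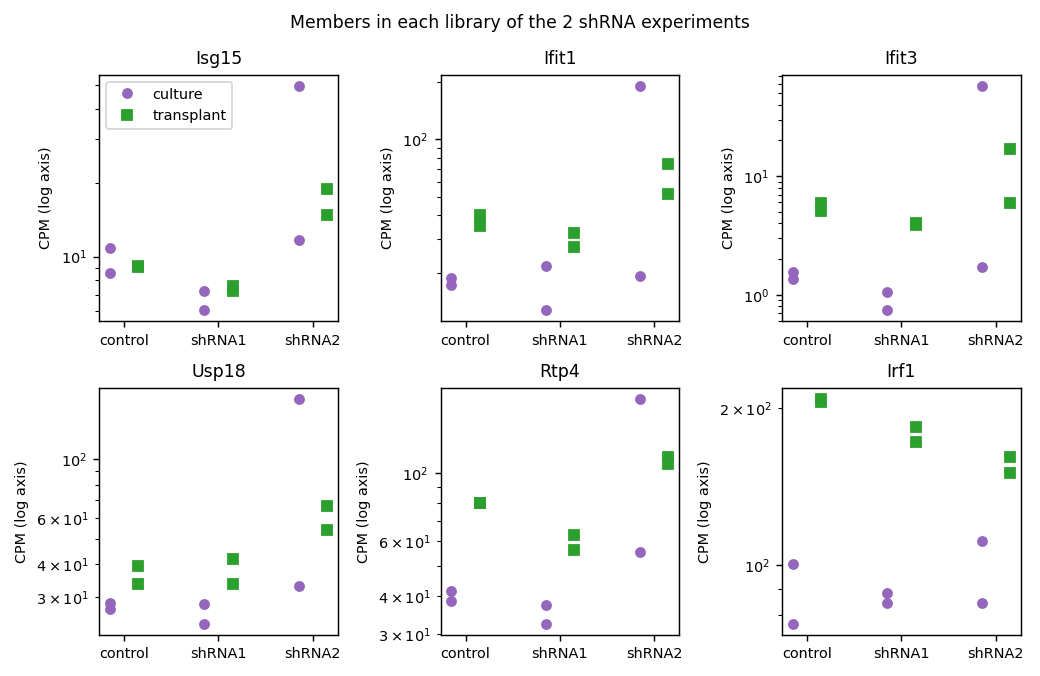
CPM, on log axes, of Isg15, Ifit1, Ifit3, Usp18, Rtp4 and Irf1 in each of the 6 culture and 6 transplant libraries, grouped by control shRNA, shRNA1 and shRNA2. Culture shRNA2 replicate 1 is the highest culture library in every panel, furthest for Ifit3 (57.7 against 0.742 to 1.71 CPM), and both shRNA2 libraries lie above the other 4 for Isg15, Ifit3, Usp18 and Rtp4 in both experiments and for Ifit1 after transplantation.

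Isg15 was at 49.6 CPM in this library and 6.05 to 11.7 CPM in the others, Usp18 at 169 CPM against 23.9 to 33.1 CPM, and Rtp4 at 173 CPM against 32.5 to 55.3 CPM. The gap was narrower for Ifitm1, at 1282 CPM against 965 to 1278 CPM, for Ifitm3, at 1056 CPM against 599.7 to 864 CPM, and for Irf1, at 111 CPM against 77.1 to 100.5 CPM. In the list of 40 upstream genes, this library was the highest in 14 of the 35 with reads, among them the RNA-binding proteins Adar (189 CPM against 101 to 124 CPM) and Eif2ak2 (102 against 53.8 to 66.7 CPM). Reads of the interferon genes Ifnb1, Ifna4 and Ifng were 0 in all 6 culture libraries, which allows up to 0.0804 CPM at 3 reads, for counting error only. Summed markers of monocytes and macrophages were at 26.6 CPM in this library against 16.7 to 22.6 CPM, and those of plasmacytoid dendritic cells at 1.41 CPM against 0.61 to 1.23 CPM, with C1qa and Siglech at 0 in all 6.

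The 4 knockdown libraries together were tested against the 2 controls. None of the 38 genes was called by edgeR or DESeq2 and none had an unadjusted edgeR p below 0.05, beside 15.3% of all genes at that p, and with 0.582% of 19763 genes called higher and 0.324% lower. All 38 log2 fold changes were above 0, with a median of 0.68 beside 0.0038 over all genes. Without shRNA2 replicate 1 the median was 0.0063, with 21 genes above 0 and 17 below. In that fit none was called either, 5 of the 38 had an unadjusted edgeR p below 0.05, beside 15.5% of all genes, and 0.66% and 0.307% of 19555 genes were called higher and lower. Of the 38, Stat2 had an adjusted p below 0.05, at -0.29 (SE 0.06, adjusted p = 0.01), under the 1.5-fold threshold. Stat2 was at 93.5 and 88.5 CPM in the controls, 76.2 and 73.4 CPM with shRNA1 and 78.2 CPM in the remaining shRNA2 library, so that these groups did not overlap. Of 34 upstream genes tested over all 6 libraries, 1 was called, Ifngr2, a chain of the interferon gamma receptor, which fell (-0.81, SE 0.08, adjusted p = 6.2e-05). Ifngr2 was at 30.4 and 29.9 CPM in the controls and at 17 to 17.9 CPM in the 4 knockdown libraries, shRNA2 replicate 1 included.

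The direct comparison of the 2 shRNAs was added after the data were seen. In culture, shRNA2 minus shRNA1 called none of the 38 by edgeR, with 4 of the 38 at an unadjusted p below 0.05, beside 17.1% of all genes at that p and 0.572% of genes called higher and 0.324% lower, and the median was 1.04. Ifitm1 had an adjusted p of 8.6e-10 at a log2 difference of 0.41 (SE 0.03), under the 1.5-fold threshold, with 1282 and 1278 CPM for shRNA2 against 965 and 1001 CPM for shRNA1. The controls, at 1070 and 1095 CPM, lay between, and no group overlapped another.

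After transplantation, none of the 38 genes passed the test of knockdown against control. edgeR called 0% of 20350 genes higher and 0% lower, DESeq2 called 24 genes and none of the 38, and 3 of the 38 had an unadjusted edgeR p below 0.05, beside 5.59% of all genes. These were Irf1 (-0.32), Ifitm1 (0.34) and Gbp7 (0.16). Irf1 was at 206 and 208 CPM in the controls, 184 and 173 CPM with shRNA1 and 150 and 162 CPM with shRNA2. Ifitm1 was at 512 and 453 CPM in the controls, 556 and 555 CPM with shRNA1 and 692 and 658 CPM with shRNA2. The edgeR adjusted p of Irf1 and Ifitm1 was 0.83 and 0.85. The median over the 38 genes was 0.08, beside 0.0021 over all genes. It was -0.02 without shRNA2 replicate 2 and 0.13 without shRNA1 replicate 1, and -0.09 for shRNA1 alone and 0.21 for shRNA2 alone.

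After transplantation the shRNA2 libraries lay above the shRNA1 libraries for many of these genes. Both shRNA2 libraries were above the other 4 libraries in 18 of the 38 genes (47.4%), beside 10.8% of all genes. shRNA2 minus shRNA1 called 1 of the 38 higher and 0 lower by edgeR, beside 0.00983% of genes (2 of 20350) called higher and 0% lower, and 24 of the 38 had an unadjusted p below 0.05, beside 10.9% of all genes, all but Irf1 with a positive difference. The median difference was 0.35, beside 0.002 over all genes. The called gene was Rtp4, at 107 and 113 CPM with shRNA2 and 56.4 and 63.1 CPM with shRNA1 (0.89, SE 0.08, adjusted p = 0.041). Both controls, at 80.0 and 80.1 CPM, lay between.

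Isg15 was at 14.8 and 18.8 CPM with shRNA2, 7.62 and 7.27 CPM with shRNA1 and 9.11 and 9.04 CPM in the controls. Ifit1 was at 52 and 74.5 CPM with shRNA2, 32.2 and 27.3 CPM with shRNA1 and 40 and 35.1 CPM in the controls. For both genes shRNA2 was the highest of the 3 groups and shRNA1 the lowest without overlap, with log2 differences between the shRNAs of 1.18 (SE 0.17) and 1.09 (SE 0.17) that did not pass (adjusted p of 0.094 and 0.11). Ifit3 was at 5.92 and 17.1 CPM with shRNA2, 4.03 and 3.87 CPM with shRNA1 and 5.08 and 5.9 CPM in the controls. For Ifit3 only shRNA2 replicate 2 was far above the rest. That library was the highest of the 6 in 23 of the 38 genes, beside 17% of all genes. None of the 6 GTPases was among the 18 genes, with Igtp at 144 and 178 CPM with shRNA2 and 192 and 176 CPM with shRNA1. Summed monocyte and macrophage markers were 72.6 and 63.1 CPM with shRNA2, 47.6 and 42.3 CPM with shRNA1 and 39 and 29.7 CPM in the controls, with Ms4a6c at 35.1 and 50.5 CPM with shRNA2. Adgre1 was at 5.27 and 0.311 CPM, Ccr2 at 6.23 and 0.311 CPM and Csf1r, the receptor of macrophage colony-stimulating factor, at 19.5 and 9.09 CPM in shRNA2 replicates 1 and 2, with Csf1r at 11 to 13.3 CPM in the other 4 libraries. Plasmacytoid dendritic cell markers summed to at most 0.984 CPM with shRNA2, where 5 of the 6 were at 0. These cells had been sorted as lineage-negative, with Mac1 and Gr1 among the lineage markers. The part of these other cells was not tested.

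**Figure D5:**
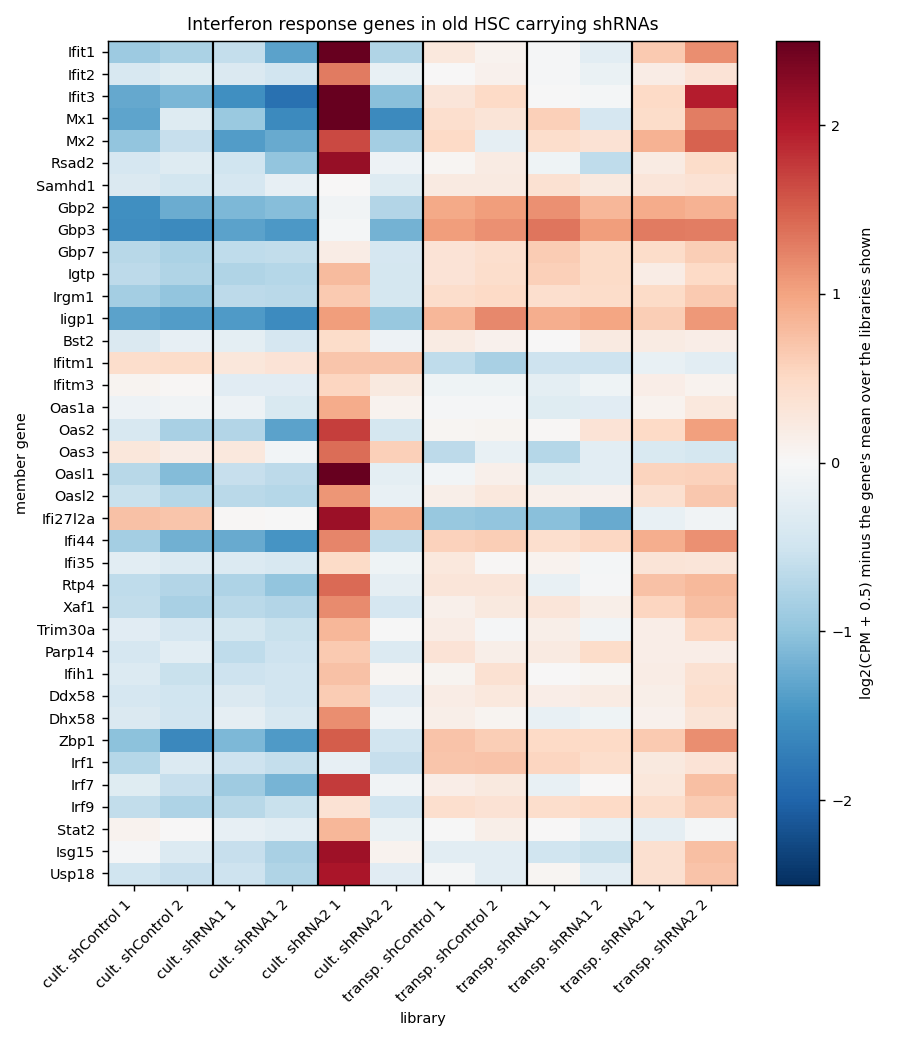
Heatmap of the 38 genes in the 12 shRNA libraries, as the log2 CPM deviation from each gene's mean, with the colour scale clipped at both ends. Culture shRNA2 replicate 1 is the highest culture library in 38 of 38 genes. Both shRNA2 libraries lie above the other 4 in 30 of 38 genes in culture and in 18 of 38 after transplantation.

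The difference between the knockdown effects of the 2 experiments was tested as an interaction. None of the 38 genes was called by edgeR and none had an unadjusted p below 0.05, beside 8.75% of all genes at that p, and with 0.0793% of 21443 genes called higher and 0.0886% lower after transplantation. The median was -0.52, and without culture shRNA2 replicate 1 it was 0.03, with 3 of the 38 at an unadjusted p below 0.05 (8.27% of all genes) and none called, beside 0.0609% and 0.0562% of 21351 genes. Among 35 upstream genes Ifngr2 was called (0.94, SE 0.15, adjusted p = 0.025), with 28 to 37.6 CPM in the 6 transplant libraries.

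Between the control libraries of the 2 experiments, most of these genes had positive log2 fold changes, higher after transplantation than in culture. Above 0 were 31 of the 38, beside 52% of all genes, with a median of 0.55 beside 0.03 over all genes. In the fit of all 12 libraries 6 of the 38 were called higher, among them 4 GTPases and Irf1, and 1 lower in transplanted than in cultured HSCs, beside 13.7% of 21443 genes higher and 11.2% lower. Gbp3 was at 121 and 128 CPM after transplantation and 19.4 and 18.8 CPM in culture (2.57, SE 0.45, adjusted p = 0.0017). Gbp2 was at 129.5 and 139.8 CPM against 23 and 28.1 CPM (2.27, SE 0.32, adjusted p = 0.00036) and Irgm1 at 174 and 182 CPM against 71.4 and 64.2 CPM (1.26, SE 0.42, adjusted p = 0.042). All 3 are interferon-inducible GTPases, and none of their control values overlapped. Irf1 was at 206 and 208 CPM against 77.1 and 100.5 CPM (1.09, SE 0.15, adjusted p = 8.2e-05), Gbp7 at 258 and 273 CPM against 125 and 118 CPM (0.99, SE 0.24, adjusted p = 0.0089) and Irf9 at 143 and 137 CPM against 69.1 and 61.9 CPM (0.96, SE 0.31, adjusted p = 0.033). These 3 genes did not overlap either. Ifitm1 was the one called lower, at 512 and 453 CPM against 1070 and 1095 CPM (-1.30, SE 0.17, adjusted p = 9.9e-05).

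The count depended on single libraries, some of which were no controls and entered through the shared estimate of spread. Without culture shRNA2 replicate 1, 12 genes were called higher and 3 lower, beside 13.8% and 11% of 21351 genes. The log2 fold change of Gbp3 was 2.57 in that fit too, while its SE went from 0.45 to 0.11. The added genes were Iigp1 (2.27), Zbp1 (1.88), Ifi44 (1.501), Igtp (0.96), Xaf1 (0.77) and Oasl2 (0.72) on the higher side and Ifi27l2a (-2.04) and Oas3 (-0.77) on the lower side. Iigp1, another GTPase, was at 204 and 262 CPM after transplantation and 44.8 and 42.9 CPM in culture, and Ifi27l2a at 1.99 and 1.92 CPM and 7.44 and 7.24 CPM, without overlap in either gene. Without replicate 2 of either control the count was 4. Among 35 upstream genes, 8 were called higher and 3 lower over all libraries, beside 13.7% and 11.2% of all genes, among them Ciita (3.78), the regulator of MHC class II, Socs3 (-1.81), Tmem173 (0.97), B2m (0.94) and Irf8 (-0.93). Between the control libraries the summed HSC markers were 3002 and 3124 CPM after transplantation and 1388 and 1380 CPM in culture, megakaryocyte markers 429 and 610.0 CPM and 1252 and 1288 CPM, and granulocyte markers 113 and 5.77 CPM and 1.8 and 2.36 CPM. The part of these markers was not tested. Cultured cells were sorted on GFP and transplanted ones again as HSCs, so culture, transplantation and the sort cannot be told apart. The study's methods give transplanted HSCs an RNA extraction of their own, whereas the labels give the same one for both experiments.

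Across the young myeloid progenitors, Oasl1, Irf7, Rsad2 and Ifih1 were highest in MEP, Ifitm1, Irf1 and Gbp2 highest in CMP, and Gbp3 highest in GMP. MEP minus CMP called 4 of the 38 higher and 18 lower, beside 17.5% and 29.2% of 18234 genes. GMP minus CMP called 0 higher by edgeR and by DESeq2 and 19 lower, beside 6.24% and 10.5% of genes, with 28 of the 38 at an unadjusted p below 0.05, beside 43.2% of all genes. MEP minus GMP called 11 higher and 12 lower, beside 16.6% and 27.2% of genes. The medians were -0.73, -0.79 and 0.02, beside -0.07, 0.0082 and -0.03 over all genes. A CMP library held the highest value of the 6 in 16 genes (replicate 1) or 12 genes (replicate 2), beside 13.9% and 16.4% of all genes.

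The gene that rose most in MEP was Oasl1, which restrains the translation of Irf7, at 30.1 and 32.1 CPM in MEP, 5.56 and 4.4 CPM in CMP and 3.07 and 1.81 CPM in GMP. Irf7 itself was at 18.6 and 18.9 CPM in MEP, 9.48 and 9.42 CPM in CMP and 2.59 and 2.8 CPM in GMP. Both were highest in MEP without overlap, with log2 differences from GMP of 3.56 (SE 0.22, adjusted p = 9.2e-09) and 2.69 (SE 0.16, adjusted p = 6.1e-09). Rsad2 was at 7.04 and 6.22 CPM in MEP, 4.46 and 4.34 CPM in CMP and 0.732 and 1.45 CPM in GMP, a log2 difference from GMP of 2.51 (SE 0.29, adjusted p = 4.6e-06), and Ifih1 at 36.7 and 39.5 CPM in MEP, 25.9 and 23.7 CPM in CMP and 18.4 and 16.3 CPM in GMP. Both again were highest in MEP without overlap, and with Oasl1 and Irf7 they are the 4 genes called higher in MEP than in CMP, at 2.76 for Oasl1, 1.10 for Irf7, 0.73 for Ifih1 and 0.71 for Rsad2. Usp18, Rtp4, Oas3, Isg15, Ifih1, Ifit1, Irf9 and Irgm1 completed the 11 called higher in MEP than in GMP, at 0.65 to 1.83.

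Ifitm1, Irf1, Gbp3 and Gbp2 were lowest in MEP. Ifitm1 was at 256 and 160.4 CPM in CMP, 32.2 and 22.4 CPM in GMP and 1.46 and 1.58 CPM in MEP, with log2 differences of -6.98 (SE 0.49, adjusted p = 0.00066) between MEP and CMP and -2.71 (SE 0.34, adjusted p = 0.0093) between GMP and CMP. Irf1 was at 83 and 92.1 CPM in CMP, 58.5 and 71.1 CPM in GMP and 4.08 and 5.63 CPM in MEP, with a difference from CMP of -4.06 (SE 0.15, adjusted p = 3.9e-10). These 2 genes were highest in CMP. Gbp3 was at 92.8 and 87.5 CPM in CMP, 118 and 113 CPM in GMP and 4.56 and 5.77 CPM in MEP, a MEP to CMP difference of -4.01 (SE 0.10, adjusted p = 9.7e-13), and Gbp2 at 17.9 and 21.5 CPM in CMP, 7.1 and 7.17 CPM in GMP and 2.25 and 2.15 CPM in MEP (-3.04, SE 0.18, adjusted p = 4.7e-09). Gbp3 was thus highest in GMP and Gbp2 in CMP. Oasl2 was at 18.1 and 15.4 CPM in CMP, 8.22 and 8.74 CPM in GMP and 2.37 and 3.59 CPM in MEP (-2.37, SE 0.20, adjusted p = 2.3e-07). Mx1 gave 92 reads in the 2 CMP libraries, 36 in GMP and 2 in MEP, a CMP to MEP ratio of 45.1 (95% exact counting interval 12.1 to 378) and a GMP to MEP ratio of 18.6 (4.78 to 159). Ifi27l2a gave 256, 48 and 6 reads, a CMP to MEP ratio of 41.9 (19 to 115) and a GMP to MEP ratio of 8.25 (3.53 to 23.6). All MEP reads of both genes lay in replicate 1, and the intervals cover counting error only. Their fitted MEP to CMP differences were -5.21 (SE 0.91, adjusted p = 0.00021) for Mx1 and -5.21 (SE 0.62, adjusted p = 6.3e-06) for Ifi27l2a. Without that library MEP held no read of either gene, so no difference can be given. Against GMP, MEP was lower by log2 differences of -4.58 for Gbp3, -4.26 for Ifitm1 and -3.84 for Irf1 (adjusted p of 2.3e-13, 0.0039 and 5.9e-10). Those of Mx1 and Ifi27l2a were -4.16 and -3.10, which rest on the same few MEP reads.

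Several antiviral genes were lower in GMP than in CMP. Oas2 was at 2.9 and 2.07 CPM in CMP against 0.451 and 0.121 CPM in GMP (-2.87, SE 0.62, adjusted p = 0.0035), and its difference was -4.11 to -2.25 when single libraries were left out. Rtp4 was at 12.5 and 12.4 CPM in CMP against 1.47 and 2.17 CPM in GMP (-2.56, SE 0.22, adjusted p = 1.4e-06). Neither gene overlapped between the 2 types. Ifi44 was at 5.81 and 4.15 CPM against 0.676 and 1.21 CPM (-2.19), Iigp1 at 2.19 and 4.01 CPM against 0.422 and 0.784 CPM (-2.14) and Ifi27l2a at 3.78 and 3.31 CPM against 0.62 and 0.784 CPM (-2.12). Ifit1 was at 3.83 and 3.92 CPM against 1.07 and 0.784 CPM (-1.84) and Oas3 at 7.86 and 7.82 CPM against 2.14 and 1.66 CPM (-1.82). These groups were apart as well, with adjusted p from 1.4e-06 to 0.0035 over the 7 genes. Gbp3 and Bst2 had positive differences with an adjusted p below 0.05, 0.57 and 0.36, under the 1.5-fold threshold. Summed CPM of 5 granulocyte markers was 17500 and 14530 in CMP, 52070 and 51530 in GMP and 46 and 20 in MEP.

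Of 33 upstream genes tested between the progenitors, MEP minus CMP called 21 by edgeR, all lower, beside 29.2% of all genes called lower, with 28 at an unadjusted p below 0.05, beside 67.4% of all genes. The largest were Tmem173 (-9.86), Irf8 (-9.07), Tlr7 (-5.52), Socs1 (-5.12), Psmb8 (-3.28) and Ikbke (-3.18), among which Tmem173 encodes the DNA-sensing adaptor STING and Irf8 a myeloid transcription factor. GMP minus CMP called 3 higher and 4 lower, near the 6.24% and 10.5% of all genes, with Ciita (-2.78), Tlr7 (-1.76), Ikbke (1.21), Ifngr1 (0.97), Jak2 (-0.65) and Irf2 (-0.64) the largest. MEP minus GMP called 2 higher and 19 lower, beside 16.6% and 27.2% of all genes, the largest being Tmem173 (-10.09), Irf8 (-9.51), Ikbke (-4.39), Socs1 (-4.28), Tlr7 (-3.76) and Psmb8 (-3.27).

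Young HSCs held most of these genes at levels above the mean of the 3 progenitors. In a single fit of the 10 libraries, 34 of the 38 were called higher and 0 lower by edgeR and by DESeq2, with 35 at an unadjusted edgeR p below 0.05, beside 88.1% of all genes. The library sets differed over the whole table, with 52.1% of 25716 genes called higher and 21.9% lower and an all-gene median of 0.85. Of the 38 genes, 32 lay above that median and 23 by more than 1.5-fold, and their own median was 2.29. HSC and progenitor libraries were made as separate sets, so cell type and library set cannot be told apart.

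Iigp1 was at 175, 244, 246 and 277 CPM in young HSCs and at 0.422 to 4.01 CPM in the 6 progenitor libraries (7.08, SE 0.24, adjusted p = 1.5e-07). Ifit3 was at 8.49, 9.57, 14.2 and 14 CPM against 0.0301 to 0.336 CPM, with 1046 reads in HSCs and 31 in progenitors, a ratio of 79.2 (95% exact counting interval 55.4 to 117). Ifi44 was at 109.6, 109.8, 123 and 134 CPM against 0.676 to 5.81 CPM (5.58, SE 0.12). In all 3 every HSC library stood far above every progenitor library. Ifitm1 (4.86), Mx1 (4.19), Zbp1, a sensor of Z-form nucleic acid (4.05), Ifit1 (4.02) and Oasl2 (4.00) followed, with SE from 0.11 to 0.29. The plain ratio of HSC to progenitor reads for Mx1 was 11.4 (9.42 to 13.9), over 631 and 130 reads. The intervals of Ifit3 and Mx1 cover counting error only.

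By role, all 7 antiviral effectors, 6 GTPases, 4 transcription factors and 4 nucleic acid sensors were called higher in HSCs, with median log2 fold changes of 3.99, 1.82, 1.76 and 2.31. The 4 genes not called were Oasl1 (0.02), Ifi35 (0.00384), Bst2 (0.28) and Ifi27l2a (0.73), all below the all-gene median. Ifi35, an interferon-induced binding partner of other regulators, was at 44.2 to 50.1 CPM in the 6 progenitor libraries and 61.8 to 69.9 CPM in HSCs, a narrow range beside Iigp1 or Ifit3. Of 35 upstream genes tested in the same fit, 12 were called higher in HSCs and 4 lower, both smaller shares than the 52.1% and 21.9% of all genes, the largest being Tlr3 (6.62), Ciita (6.00), Ifnlr1 (4.39), Socs1 (3.93), Tmem173 (2.65) and Irf8 (-2.58). Several of the 38 genes have close relatives in the genome (the Ifit, Gbp, Oas, Ifitm and Trim30 families). Neither the handling of reads that map to several places nor the strand setting was found in the sources, so values of single family members are uncertain to that extent.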

How the data were processed

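Gene counts came from 30 of the 82 samples of the series, and ATAC-seq counts from 8. Per the labels and the study's methods, the authors trimmed reads with cutadapt, aligned mRNA reads with STAR to mm10 and counted them per GENCODE M22 gene with featureCounts, aligned chromatin reads with BWA, called ATAC-seq, H3K4me3 and H3K27ac peaks with MACS2 and took H3K27me3 peaks from chromatin states assigned by IDEAS. The authors deposited raw counts per gene and per ATAC-seq region, and histone peak signal scaled to a fixed number of reads per library. The labels and the study's methods name different RNA library kits and extractions, and the labels give one kit for the young and old HSC and progenitor libraries and another for the shRNA libraries. The authors' own fold-change columns were not used, nor were 8 per-sample columns that matched no label, and 92 spike-in entries were left out.

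Counts were tested with edgeR 4.0.16 (TMM scaling, filterByExpr, quasi-likelihood test) in R 4.3.3, with DESeq2 1.42.0 as the alternative, and adjusted over all genes tested. Called genes had more than a 1.5-fold difference with adjusted p under 0.05. ATAC-seq regions needed a CPM above 1.5 in at least 4 libraries and, to be called, more than a 1.5-fold difference with adjusted p under 0.01. Histone signal was compared by the study's ratio rule and, as an alternative, with limma 3.58.1 on log2(signal + 0.5). The ages entered 1 fit of 12 libraries, each shRNA experiment its own fit of 6 libraries, both experiments together 1 fit of 12, the progenitors 1 fit of 6, and HSCs with progenitors 1 fit of 10. Scripts were tested on simulated data. Read totals are given with the levels, and ATAC-seq libraries held 15427933 to 26260337 reads in regions.

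The 38 genes and all lists were chosen with earlier results of these data known. Values per library are given for 19 members fixed by name between ages, and in each comparison for the called members (all of them up to 8, otherwise the 8 with the largest fold changes), with up to 6 called upstream genes. Some genes of the lists are not reported here. Gene coordinates are on GRCm38, and promoter letters come from RefSeq. Other settings, single libraries left out and the replicate number as a block were tried. Replicate numbers were checked for pairing and did not pair the samples.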

Additional observations from a re-analysis of the deposited data

Results flagged for a closer look

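In groups of 4 to 8 libraries, a library was picked out when its gap to the nearest other library took an unusually large share of the group's range, which chance alone does in about 1 of 20 groups. With 76 groups of mRNA levels and 96 of ATAC-seq regions searched, chance would give about 3.8 and 4.8 such libraries, and 4 and 5 were found. Among mRNA levels, Parp14 in young replicate 1 was at 89.7 CPM, under the 104 to 107 CPM of the other young libraries. Mx2 in old replicate 3 was at 6.52 CPM against 4.16 to 5.16 CPM in the other old libraries. Old replicate 8 held Oas3 at 60.8 CPM against 34.5 to 46.3 CPM and Irgm1 at 247 CPM against 148 to 194 CPM. Among ATAC-seq regions, young replicate 2 was the highest young library at Gbp7 (38.5 CPM against 35.2 to 35.5 CPM) and the lowest at Irf7 (6.29 CPM against 8.00 to 8.26 CPM) and Irgm1 (13.8 CPM against 15.8 to 16.3 CPM). Old replicate 7 was the highest old library at Ifi27l2a (3.10 CPM against 2.05 to 2.19 CPM) and Oas1a (7.44 CPM against 6.37 to 6.54 CPM). The shRNAs differed in their effect against the same controls for Ifitm1 in culture, by 0.41 on the log2 scale at an edgeR adjusted p of 8.6e-10, and for Rtp4 after transplantation, by 0.89 at an edgeR adjusted p of 0.041. These tests of shRNA2 minus shRNA1 were added after the data were seen.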

How the results depend on the processing

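Between ages the 2 called genes became 7 with no fold threshold, 1 above 2-fold and 2 to 4 when single libraries were left out. The age difference of Gbp2, near 0, turned negative with DESeq2-type size factors (-0.0019) and with the replicate block (-0.0053), and ran from -0.0436 to 0.0817 when single libraries were left out, and that of Igtp from -0.141 to 0.0507. Transplantation against culture called 4 to 15 genes when single libraries were left out. Of the promoter ATAC-seq regions, 12 passed with no fold threshold, 2 without the CPM filter (Ifitm3 and Ifi27l2a) and 0 to 3 when single libraries were left out. Of the H3K27ac peaks, 0 passed with 0.5 added to every signal, 0 in limma, 0 in limma with the replicate block, and 2 to 5 when single libraries were left out. The cause was not tested in any of these. Deviations of same-numbered libraries from their group means correlated at -0.226 to 0.0541 for mRNA and at 0.0199 for H3K27ac, so the numbers did not pair the samples. The replicate block gave 3 called genes between ages, Rtp4, Mx1 and Oas2 (-0.63, edgeR adjusted p = 0.0043). It gave 0 in culture, 0 after transplantation and 7 for transplantation against culture. Between cell types it gave 23 for MEP against CMP, 19 for GMP against CMP, 23 for MEP against GMP and 33 for HSCs against progenitors. No paired analysis was possible for ATAC-seq because the ages share no replicate numbers. The other 57 counts under another setting and 79 with a library left out stayed within 1.5 times the count first given. With 2 libraries per shRNA or progenitor group, the test rests on few degrees of freedom.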
